A study of Mus musculus with 8 samples.

Results

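Retinoic acid is made, bound and degraded within the testis by a small set of enzymes, binding proteins and receptors, and 9 genes of this set were examined in whole testis RNA. They were chosen by gene symbol as genes of retinoic acid synthesis (Rdh10, Aldh1a1, Aldh1a2 and Aldh1a3), breakdown (Cyp26a1 and Cyp26b1), binding (Crabp1) and reception (Rara and Rarg), and all 9 are among the 19906 genes of the deposited table. Testes came from 4 Tmem232-/- and 4 Tmem232+/+ mice aged 2 months, with 1 library per mouse and no treatment in either genotype. The Tmem232-/- mice carry a deletion made with CRISPR-Cas9 on a C57BL/6 background, which shifts the reading frame of Tmem232 in all tissues and not only in germ cells, and whether the mice of the genotypes were littermates is not given in the sources used here. The comparison asks which of these transcripts differ in the testis when Tmem232, which encodes a transmembrane protein, is disrupted.

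Total counts lay between 15428421 and 16350871 per library. Levels are given as CPM, the count scaled to a common library total after TMM normalization, which compares libraries for 1 gene and is listed in the order of replicates 1 to 4. Levels of different genes are ranked only by the authors' FPKM, which is also per length of transcript. Sums of markers, and ratios of a gene to such a sum, are of CPM and serve to compare libraries. Tmem232 itself was at 131 ± 11.8 CPM under the label Tmem232-/- and at 109 ± 2.08 CPM under the label Tmem232+/+ (SD, n = 4 each), a log2 fold change of 0.27 (adjusted p = 0.034 by edgeR). Its count thus did not verify the labels, since the table has a single count per gene and cannot separate the deleted exons, and the genotypes are given as labelled throughout. Markers of Sertoli cells, Leydig cells, peritubular myoid cells and all stages of germ cells were detected, but at unlike levels in the 2 genotypes. The summed markers of elongating spermatids were at 1621 to 2570 CPM in the libraries labelled Tmem232-/- and at 622 to 1153 CPM in the others, and those of round spermatids at 1064 to 1322 CPM and at 662 to 909 CPM, while all 11 spermatocyte markers had negative log2 fold changes and 2 of them passed as lower. Of the 11 markers of elongating spermatids, 10 passed as higher under the label Tmem232-/- and 0 as lower. Prm1 was at 95.9 ± 39.8 CPM there and at only 4.55 ± 2.43 CPM under the label Tmem232+/+ (SD, n = 4 each). Prm2 was at 140 and 6.44 CPM, and Tnp1 at 69.2 and 5.95 CPM. The sum hides much of this gap, since Hspb9, at 336 and 365 CPM, did not pass. All values below are thus shares of an RNA pool that itself differed in germ cell transcripts.

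Cells make retinoic acid from vitamin A in a chain of oxidations. RDH10 oxidises retinol to retinal, and the retinaldehyde dehydrogenases ALDH1A1, ALDH1A2 and ALDH1A3 oxidise retinal to retinoic acid, which enters the nucleus and binds RAR receptors paired with RXR receptors on DNA. CRABP1 holds retinoic acid in the cytoplasm, and the cytochromes CYP26A1 and CYP26B1 degrade it. In the testis retinoic acid drives spermatogonia into differentiation and germ cells into meiosis, with Stra8 as its best known target, and Crabp1 and Rarg are known from spermatogonia, Rara from Sertoli cells and germ cells, Aldh1a2 from spermatocytes, and Cyp26b1 from peritubular cells.

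Because RAR and RXR bind direct repeats of a 6-base unit, promoters were searched for such repeats, and those found are shown for Cyp26a1, a gene known to be induced by retinoic acid in many tissues, and for the pathway gene that differed most. The unit searched for was AGGTCA, with the forms AGTTCA (found in many known response elements) and GGGTCA accepted as well. Between the units 5, 2 or 1 bases were allowed. Both strands were searched, in windows from 250 bases before to 50 bases after start sites in RefSeq's annotation of GRCm38.p6. Not every start had its own window, as the outermost RefSeq starts of Rara (98927800), Cyp26b1 (84593908) and Cyp26a1 (37697738) had none. Windows were at hand for 7 of the 9 genes, namely all except Rdh10 and Aldh1a3, with 12 windows in all. A match was found for 1 of them, Cyp26a1, with a spacing of 5 bases, and among the other pathway genes and targets for Bco1, with a spacing of 1 base. Both are printed 5′ to 3′ on the strand of the gene, where the units read in reverse complement, with the units in capitals.
Cyp26a1, chr19:37697776-37697792, plus strand: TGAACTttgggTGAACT
Bco1, chr8:117095809-117095821, plus strand: TGACCTtTGACCT
The match of Cyp26a1 begins 32 bases before the start site of this window, and as the deposited table starts the gene at 37697732, it lies within the gene as counted. Of all 32851 windows, 0.0731% held a repeat with 5 bases between the units, 0.195% one with 1 base, and 37.5% at least a single unit. A match describes letters and not a bound site, and the windows of Crabp1, Rara, Rarg, Aldh1a1, Aldh1a2 and Cyp26b1 without a match say only that these letters are not in them.

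The levels per length of the 9 genes spanned a wide range in the testis. Aldh1a1 was the most abundant with a mean of 213 FPKM over the 8 libraries (range 183 to 250), followed by Aldh1a2 with 96.2 FPKM (87.6 to 104). Neither range overlapped that of the next gene. Crabp1 (13.7 FPKM), Rara (13.1 FPKM) and Cyp26b1 (10.9 FPKM) formed a middle group whose ranges overlapped, from 7.12 FPKM for the lowest library of Cyp26b1 to 18.1 FPKM for the highest of Crabp1, so their order is not beyond their spread. Rdh10 with 4.48 FPKM and Rarg with 3.52 FPKM overlapped as well. Aldh1a3 (1.75 FPKM) and Cyp26a1 (1.30 FPKM) were lowest, with overlapping ranges. Aldh1a1 thus had 163 times the mean FPKM of Cyp26a1. The retinaldehyde dehydrogenases hence take both the top and nearly the bottom of this order, and of the breakdown enzymes Cyp26b1 was well above Cyp26a1 in every library.

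**Figure D1:**
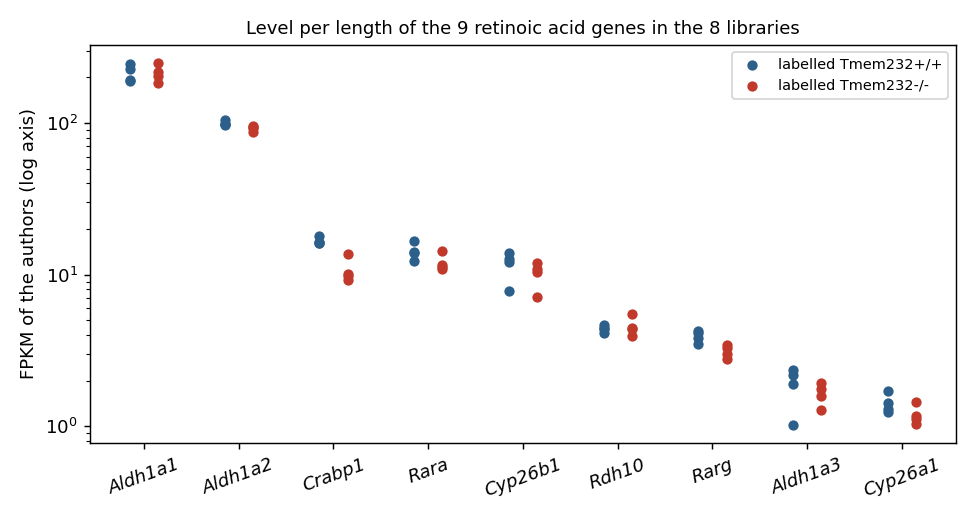
Level per length of the 9 retinoic acid genes, in the authors' FPKM on a log axis, with 1 point per library and genes ordered by their mean over the 8 libraries. Aldh1a1 and Aldh1a2 lie apart from the others in all libraries, and the genotypes do not overlap in Crabp1 and, narrowly, in Rarg and Aldh1a2.

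Between the genotypes, 1 of the 9 genes changed. Crabp1, the cytoplasmic binding protein of retinoic acid, was lower in the libraries labelled Tmem232-/-, 8 genes did not pass the test, and none was higher. The threshold was an adjusted p of 0.05 in the quasi-likelihood test of edgeR, corrected by Benjamini and Hochberg's method over 15787 tested genes. In this fit 11.8% of all tested genes passed, 10.3% as higher and 1.46% as lower. At an unadjusted p under 0.05, 0 of the 9 genes were higher and 2 were lower, Crabp1 and Rarg, and the same counts were obtained with DESeq2 and limma-voom. The median log2 fold change of the 9 genes was -0.16 beside -0.05 for all tested genes, and 7 of the 9 had a negative value, as had 9600 of the 15787 tested genes. With 1 library left out, the median of the 9 genes lay between -0.264 and -0.0832. Without replicate 1 labelled Tmem232+/+ it was -0.0878, beside -0.00668 for all tested genes.

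Crabp1 (Entrez ID 12903) lies on chromosome 9 of GRCm38.p6 from 54764748 to 54773110. Libraries labelled Tmem232-/- held 5.99, 6.40, 6.20 and 8.61 CPM of it, from 90, 102, 98 and 140 counts. Those labelled Tmem232+/+ held 10.3, 9.93, 11.1 and 9.95 CPM, from 166, 164, 176 and 162 counts. Every library labelled Tmem232-/- was below every other, with replicate 4 nearest to them. The means were 6.80 ± 1.22 CPM (SD, n = 4) and 10.3 ± 0.569 CPM (SD, n = 4), a fall of 34.2%. On the log2 scale the difference was -0.60 with a standard error of 0.131 and a 95% interval of -0.89 to -0.32 (edgeR, adjusted p = 0.0096), and the exact permutation test gave a two-sided p of 0.029, the smallest that 4 mice against 4 allow. In the 8 fits of edgeR that each lacked 1 library, it lay between -0.73 and -0.53, with adjusted p between 0.0018 and 0.042. Without both replicate 1 labelled Tmem232-/- and replicate 3 labelled Tmem232+/+, whose levels of other genes stand apart as described below, Crabp1 differed by -0.48 (edgeR, adjusted p = 0.067), so that the call was lost with 3 libraries per genotype. Across the 19 alternatives tried, adjusted p lay between 0.0018 and 0.067 in all.

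Spermatogonia are the known site of Crabp1, and 3 of their markers fell as well. Of 11 markers of spermatogonia, 3 were lower (Uchl1, Sohlh1 and Stra8) and 0 higher in edgeR, where 1, Gfra1 of undifferentiated spermatogonia, was higher and 6 were lower at an unadjusted p under 0.05, with 0 higher and 3 lower after adjustment also in DESeq2 and limma-voom. Over all tested genes 1.46% were lower, and with 1 library left out Sohlh1 lost its call in 7 of 8 fits and Stra8 in 4 of 8. Their summed level was 271 to 299 CPM in the libraries labelled Tmem232-/- and 319 to 351 CPM in the others, without overlap. Zbtb16, the marker of undifferentiated spermatogonia, had 11.9 and 15.2 CPM as the means of the genotypes, and Kit, the receptor of differentiating spermatogonia, 33.6 and 34.6 CPM, and neither passed. Set against this sum, Crabp1 was at 2.01% to 2.88% in the libraries labelled Tmem232-/- and at 2.96% to 3.24% in the others, a narrow gap. How many other genes would separate in this way was not counted. Uchl1, Dmrt1 and Id4 gave the most CPM to the sum, and Id4 had a log2 fold change of 0.01. The sum therefore need not follow the cells that hold Crabp1. This ratio was chosen after the values were seen, and the list shares no gene with the 9. In bulk tissue, fewer cells of a type and less RNA per cell cannot be told apart.

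The receptors differed less. Rarg (Entrez ID 19411, chromosome 15, 102234938 to 102257522), the retinoic acid receptor of spermatogonia, had 8.19, 8.60, 7.40 and 8.73 CPM in the libraries labelled Tmem232-/- and 10.2, 10.7, 8.93 and 10.9 CPM in those labelled Tmem232+/+. All libraries labelled Tmem232-/- were below the others, with replicate 4 at 8.73 CPM close to the lowest of the others at 8.93 CPM. The log2 difference was -0.31 (standard error 0.108, 95% interval -0.55 to -0.07) with p = 0.016 before and 0.10 after adjustment in edgeR, and the exact permutation test gave a two-sided p of 0.029. Rarg thus did not pass the correction, and in all alternatives its log2 fold change stayed between -0.34 and -0.26 with an adjusted p between 0.075 and 0.25. Relative to the summed spermatogonia markers, Rarg was at 2.56% to 3.17% and at 2.55% to 3.37%, with overlap. Crabp1 and Rarg were the 2 of 9 genes whose libraries labelled Tmem232-/- were all lower, beside 6.88% of all tested genes.

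Rara (Entrez ID 19401, chromosome 11, 98927813 to 98974942), the receptor through which Sertoli cells and germ cells respond, had 32.6, 32.1, 34.2 and 39.5 CPM in the libraries labelled Tmem232-/- and 36.1, 39.4, 43.7 and 38.3 CPM in the others. Replicate 4 labelled Tmem232-/- lay among the other genotype. On the log2 scale Rara differed by -0.19 with a 95% interval of -0.38 to 0.01 (edgeR, adjusted p = 0.22). With 1 library left out this value lay between -0.244 and -0.102, the latter without replicate 3 labelled Tmem232+/+. Without both libraries that stand apart it was -0.0726. Among 15 markers of Sertoli cells the median log2 difference was -0.16, and 13 of 15 were negative. In edgeR 0 of them passed, with 0 higher and 2 lower at an unadjusted p under 0.05, and 0 passed in DESeq2 and limma-voom. Their summed level was 2125 to 2777 CPM under the label Tmem232-/- and 2514 to 2643 CPM under the other, with replicate 4 labelled Tmem232-/- highest, as for Rara among the libraries of its label. The part of cell numbers in the value of Rara was not tested.

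**Figure D2:**
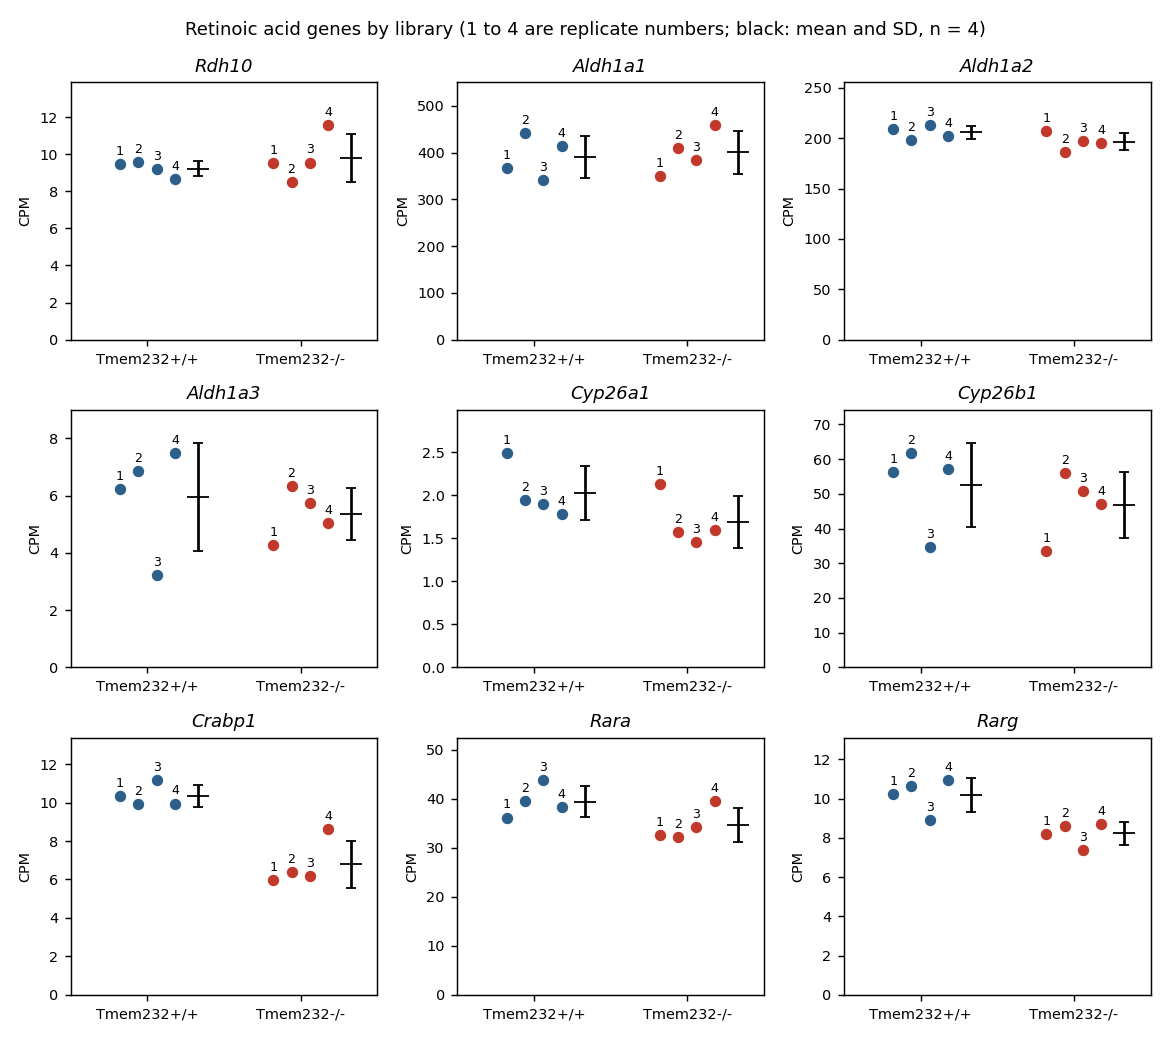
CPM of the 9 retinoic acid genes in each library, with the replicate number above each point and the mean and SD (n = 4) in black beside each genotype. Crabp1 and Rarg do not overlap between the genotypes, and Aldh1a3 and Cyp26b1 have their lowest points in replicate 3 labelled Tmem232+/+ and replicate 1 labelled Tmem232-/-.

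The genes of synthesis showed no difference that passed the test. Aldh1a1 (Entrez ID 11668, chromosome 19, 20492174 to 20643462) had 350, 410, 384 and 458 CPM in the libraries labelled Tmem232-/- and 367, 441, 342 and 413 CPM in the others. The genotypes overlapped almost fully, at a log2 fold change of 0.04 with a 95% interval of -0.19 to 0.26 (adjusted p = 0.85 from edgeR). The antisense transcript C730002L08Rik overlaps Aldh1a1, and without a stated strand setting of the counting their reads cannot be told apart. Aldh1a2 (Entrez ID 19378, chromosome 9, 71215789 to 71296243), the retinaldehyde dehydrogenase of germ cells in meiosis, had 207, 186, 198 and 196 CPM in the libraries labelled Tmem232-/- and 209, 199, 213 and 203 CPM in the others. It was the steadiest of the 9 genes, with a highest library only 1.14 times the lowest. Its 95% interval, from -0.20 to 0.07 around a log2 fold change of -0.07, is the narrowest of the 9 (adjusted p = 0.54 from edgeR). In FPKM, which is scaled otherwise, the genotypes of Aldh1a2 did not overlap, with at most 96.0 and at least 97.7 FPKM, and over all alternatives its adjusted p was 0.246 to 0.913.

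Rdh10 (Entrez ID 98711, chromosome 1, 16105882 to 16134116), which catalyses the first oxidation, had 9.52, 8.47, 9.55 and 11.6 CPM in the libraries labelled Tmem232-/- and 9.47, 9.57, 9.18 and 8.66 CPM in the others. Replicates 2 and 4 labelled Tmem232-/- were the lowest and the highest of all libraries, so that the other genotype lay between them. The log2 fold change was 0.08 with a 95% interval of -0.17 to 0.34 (adjusted p = 0.68 from edgeR). Aldh1a3 (Entrez ID 56847, chromosome 7, 66390892 to 66427477) had 4.26, 6.34, 5.76 and 5.04 CPM in the libraries labelled Tmem232-/- and 6.23, 6.84, 3.23 and 7.49 CPM in the others. Its libraries varied most among the 9 genes, the highest being 2.32 times the lowest within 1 genotype, and the 95% interval from -0.67 to 0.36 around -0.15 excludes neither a fall nor a modest rise (adjusted p = 0.72 from edgeR). With 1 library left out the log2 fold change of Aldh1a3 lay between -0.325 and -0.0241, the former without replicate 3 labelled Tmem232+/+.

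The breakdown enzymes did not pass the test either. Cyp26b1 (Entrez ID 232174, chromosome 6, 84571414 to 84593908) had 33.6, 55.9, 50.8 and 47.0 CPM in the libraries labelled Tmem232-/- and 56.3, 61.8, 34.6 and 57.1 CPM in the others. Replicate 1 labelled Tmem232-/- and replicate 3 labelled Tmem232+/+ were far below the other 6 libraries, which lay between 47.0 and 61.8 CPM. The log2 fold change was -0.16 with a 95% interval of -0.57 to 0.24 (adjusted p = 0.61 from edgeR), and -0.16 with a standard error of 0.084 instead of 0.184 without these 2 libraries (adjusted p = 0.34). It depended on each of them, at -0.035 without replicate 1 labelled Tmem232-/- alone and -0.287 without replicate 3 labelled Tmem232+/+ alone. Cyp26a1 (Entrez ID 13082, chromosome 19, 37697732 to 37701536) had 2.13, 1.57, 1.46 and 1.599 CPM in the libraries labelled Tmem232-/- and 2.49, 1.94, 1.90 and 1.78 CPM in the others. These rest on only 23 to 40 counts per library, and replicate 1 labelled Tmem232-/- was above 3 libraries labelled Tmem232+/+. Its log2 fold change of -0.27 had a 95% interval of -0.70 to 0.17 (adjusted p = 0.44 from edgeR). With 1 library left out it lay between -0.394 and -0.114, the latter without replicate 1 labelled Tmem232+/+.

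The same 2 libraries were low in more than Cyp26b1. In Aldh1a3, replicate 1 labelled Tmem232-/- (4.26 CPM) and replicate 3 labelled Tmem232+/+ (3.23 CPM) were again the lowest of all, and they were the lowest for Aldh1a1 too, with 350 and 342 CPM. The summed endothelial markers were at 39.7 and 43.1 CPM in these libraries and at 49.5 to 60.9 CPM in the other 6. Red blood cell markers summed to 151 and 305 CPM there, where the other libraries had 283 to 597 CPM, with 318 and 283 CPM in replicates 3 and 4 labelled Tmem232-/-. Elongating spermatid markers were highest of their genotype in both libraries, with 2570 and 1153 CPM. Spermatocyte markers summed to 3748 and 3866 CPM in these 2 libraries and to 3008 to 3604 CPM in the other 6. Crisp1, a marker of epididymis, was at 5.52 and 9.94 CPM in the 2 libraries. It was at 27.0 CPM in replicate 1 labelled Tmem232+/+ and at most at 0.861 CPM in the rest. Peritubular myoid markers, from the cells in which Cyp26b1 is known, summed to 380 CPM in replicate 1 labelled Tmem232-/-, where only replicate 3 of the same label was lower with 343 CPM, and to 477 CPM, the highest of all, in replicate 3 labelled Tmem232+/+. Whether the cell makeup of these libraries has a part in the levels of Cyp26b1 and Aldh1a3 was not tested.

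**Figure D3:**
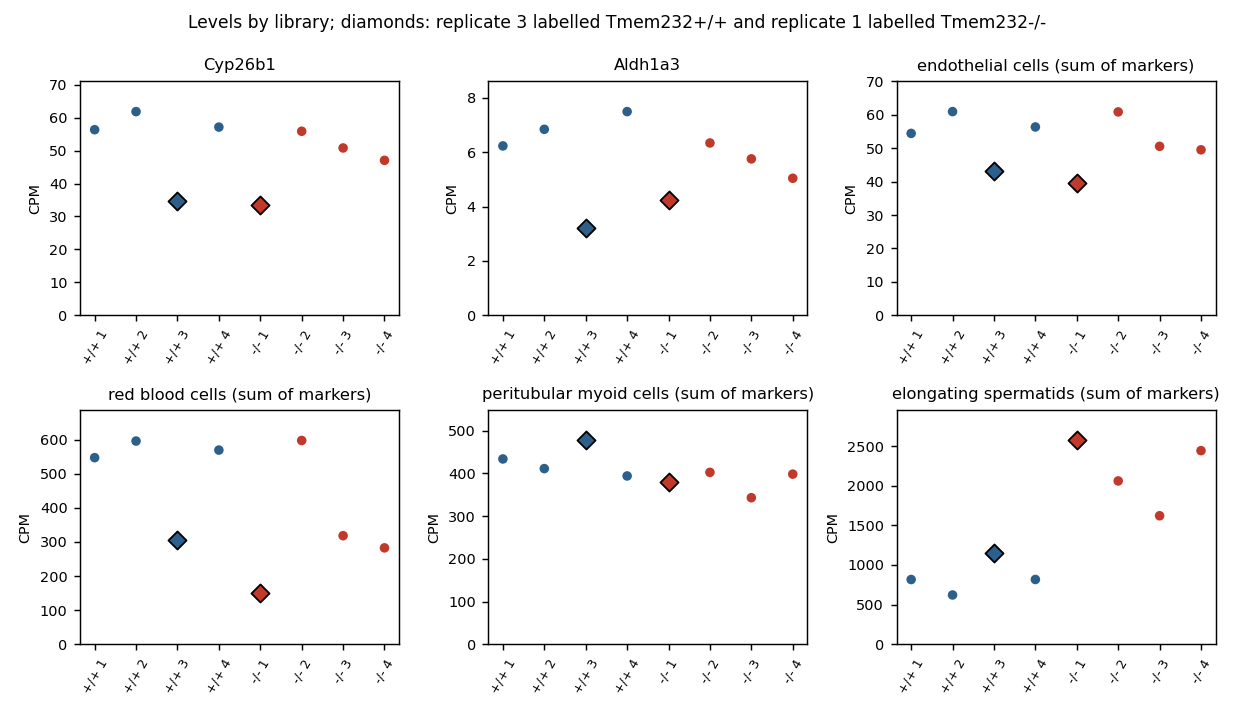
CPM of Cyp26b1 and Aldh1a3 and summed CPM of the markers of 4 cell types in each library, with diamonds for replicate 3 labelled Tmem232+/+ and replicate 1 labelled Tmem232-/-. Both diamonds are the lowest points for Cyp26b1 (34.6 and 33.6 CPM), Aldh1a3 and the endothelial markers, and not for the peritubular myoid markers.

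Other genes of vitamin A metabolism were taken from a list of 40 genes of the table, of which 29 had enough counts to be tested. In the edgeR test 4 of these rose and 1 fell in the libraries labelled Tmem232-/-, with a median log2 fold change of -0.09. Over all tested genes 10.3% rose and 1.46% fell and the median was -0.05, so that these counts are near the background. With 1 library left out, 1 to 4 of the pathway genes rose and 1 to 2 fell. Bco1, the oxygenase that cleaves beta-carotene into retinal, rose most, from 2.43, 2.18, 3.48 and 3.75 CPM in replicates 1 to 4 labelled Tmem232+/+ to 9.52, 8.60, 7.02 and 8.61 CPM in those labelled Tmem232-/-. Each of the latter was above all of the former. The log2 difference was 1.51 with a standard error of 0.184 (edgeR, adjusted p = 0.000185), and it stayed between 1.39 and 1.64 with any 1 library left out.

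Rbp4, the carrier of retinol in blood, was the 1 gene of this list that fell. The libraries labelled Tmem232-/- had 4.73, 4.21, 4.11 and 3.44 CPM and the others 6.48, 6.06, 5.83 and 6.45 CPM, with no overlap. The log2 fold change of -0.59 (standard error 0.13) is close in size to that of Crabp1, and its adjusted p of 0.0105 from edgeR rose to at most 0.046 with 1 library left out. With the replicate number as a block, although these numbers do not pair the libraries, its adjusted p from edgeR was 0.0505 and the call was lost. Stra6, the receptor that takes up retinol from RBP4, had a log2 fold change of -0.22 and did not pass (adjusted p = 0.29 from edgeR).

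Lrat, which esterifies retinol for storage, rose from 11.7 ± 1.22 to 15.1 ± 1.34 CPM (SD, n = 4 each), a log2 fold change of 0.37 with an adjusted p of 0.045 from edgeR. This call was lost in 6 of the 8 fits that left out 1 library, all but those without replicate 4 labelled Tmem232-/- or replicate 3 labelled Tmem232+/+, with adjusted p from 0.065 to 0.128. It was also lost without both libraries that stand apart (0.064), when scaled by library size alone (0.077) and in limma on log2(FPKM + 1) and log2(FPKM + 0.1) (0.094 and 0.104). Aldh1a7, a close relative of Aldh1a1 with which reads may be shared, rose, with 27.3, 29.1, 27.4 and 36.0 CPM in the libraries labelled Tmem232-/- and 15.8, 23.2, 19.2 and 24.2 CPM in the others, a log2 fold change of 0.54 with adjusted p = 0.027 from edgeR. Without replicate 2 or replicate 4 labelled Tmem232-/- its adjusted p was 0.059 or 0.066, and it was 0.055 with library size alone and 0.063 and 0.064 on the FPKM scales. Dhrs3, which turns retinal back into retinol and is induced by retinoic acid, had means of 11.1 and 11.8 CPM and differed by -0.09 on the log2 scale (adjusted p = 0.72 from edgeR).

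Of the other receptors, Rxra rose and Rxrb did not pass. Rxra, a partner of the RAR receptors, had 23.1, 27.4, 21.9 and 24.0 CPM in the libraries labelled Tmem232-/- and 18.8, 20.5, 15.1 and 19.3 CPM in the others. Its log2 fold change of 0.39 had an adjusted p of 0.043 from edgeR, which lay between 0.058 and 0.139 in 5 of the 8 fits that lacked 1 library, namely replicate 1, 2 or 4 of the Tmem232-/- libraries and replicate 1 or 4 of the Tmem232+/+ ones. Rxra also lost its call without both libraries that stand apart (0.060), with library size alone (0.065) and on either FPKM scale (0.101 each). Rxrb had 27.7 ± 1.72 and 32.4 ± 1.01 CPM (SD, n = 4 each), with no overlap between the genotypes and a log2 fold change of -0.23 (adjusted p = 0.07 from edgeR). Rarb (0.353 and 0.265 CPM) and Rxrg (0.172 and 0.0928 CPM), given as means of the libraries labelled Tmem232-/- and Tmem232+/+, had too few counts to be tested, as had Crabp2 with 0.301 and 0.387 CPM, so that Rara, Rarg, Rxra and Rxrb made up the receptors that could be compared.

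**Figure D4:**
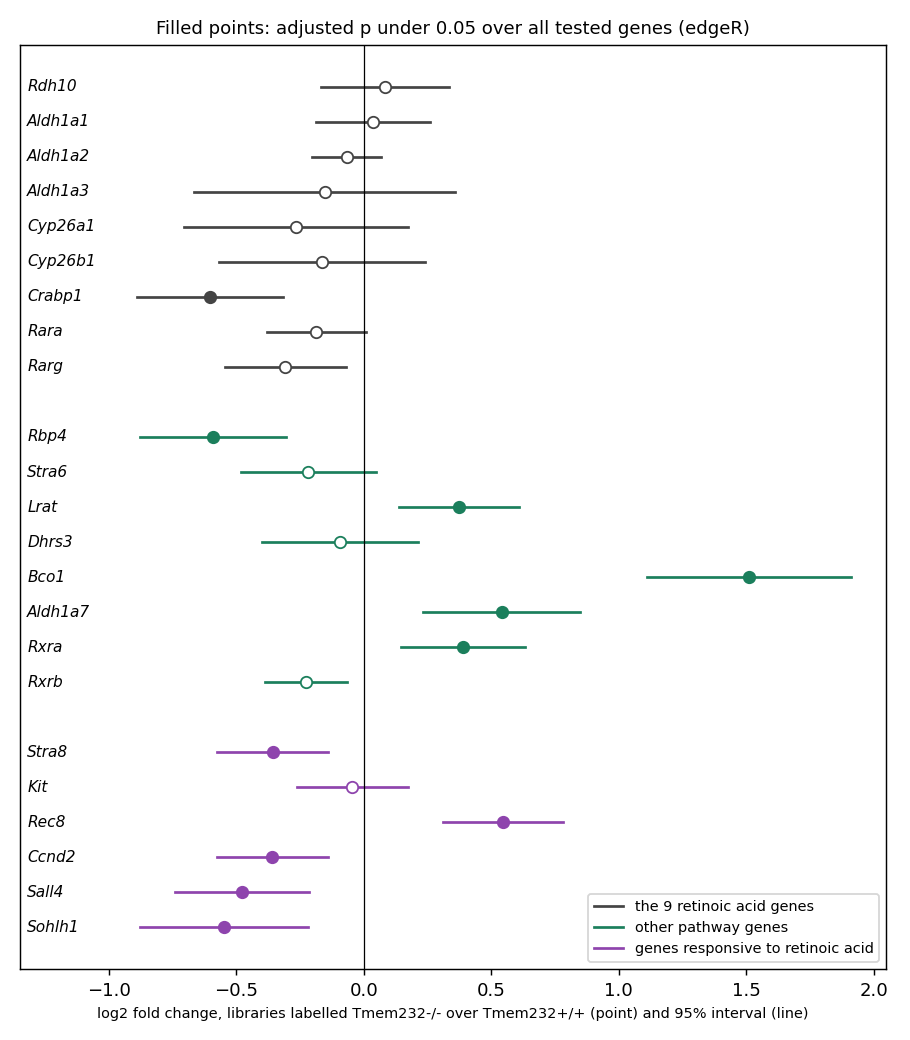
Log2 fold change of the libraries labelled Tmem232-/- over those labelled Tmem232+/+ for the 9 retinoic acid genes, other pathway genes and genes responsive to retinoic acid, with the 95% interval as a line and filled points for an adjusted p under 0.05 in edgeR. Crabp1 is the 1 filled point of the 9 at -0.60, and Bco1 at 1.51 lies far to the right of all others.

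Genes described as responsive to retinoic acid had mostly negative log2 fold changes, and Rec8 was the exception. Of the 17 genes of this list in the table, 15 were tested, of which 1 rose and 4 fell, 14 had a negative log2 fold change and the median was -0.24. Beside this, 10.3% of all tested genes rose and 1.46% fell, 9600 of 15787 were negative, and their median was -0.05. Stra8, the target that licenses entry into meiosis, had 30.2, 25.0, 29.8 and 26.4 CPM in the libraries labelled Tmem232-/- and 36.8, 32.9, 40.9 and 32.1 CPM in the others. All of the former were below the latter, with replicate 1 labelled Tmem232-/- nearest. The log2 difference was -0.36 with a standard error of 0.099 (edgeR, adjusted p = 0.038), and the adjusted p was between 0.099 and 0.16 when replicate 2 or 4 of the Tmem232-/- libraries, or replicate 1 or 3 of the Tmem232+/+ ones, was left out. When size factors of DESeq2 replaced TMM it was 0.059, without a filter on low counts 0.0775, and without both libraries that stand apart 0.081.

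Rec8, the meiotic cohesin subunit that retinoic acid induces, moved the other way. Its levels were 85.3, 74.3, 62.0 and 68.9 CPM in the libraries labelled Tmem232-/- and 46.4, 44.9, 57.3 and 50.2 CPM in the others, again without overlap. Its log2 fold change of 0.55 (standard error 0.107) had an adjusted p of 0.00499 from edgeR and held in every fit with 1 library left out, with an adjusted p of at most 0.0188. Kit, which retinoic acid raises in differentiating spermatogonia, differed by -0.04 on the log2 scale (adjusted p = 0.81 from edgeR).

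Sohlh1, Sall4 and Ccnd2, a transcription factor of differentiating spermatogonia, one of undifferentiated spermatogonia and a cyclin of the G1 phase, fell with log2 fold changes of -0.55, -0.48 and -0.36 and adjusted p of 0.035, 0.023 and 0.037 from edgeR. These calls depended on the libraries and on the processing. Of the 8 fits that lacked 1 library, Sohlh1 kept its call in the 1 without replicate 4 labelled Tmem232-/- and had adjusted p of 0.051 to 0.111 in the other 7, and Ccnd2 kept its call in the 1 without replicate 3 labelled Tmem232+/+ and had 0.065 to 0.10 in the other 7. Over all 19 alternatives Sohlh1 kept its call in 9 and Ccnd2 in 8. Sall4 lost its call, with 0.059 to 0.101, when replicate 1 or 3 of the Tmem232-/- libraries, or replicate 1 or 2 of the Tmem232+/+ ones, was left out. Without a filter on low counts Sohlh1 and Ccnd2 had adjusted p of 0.056 and 0.075, Ccnd2 had 0.064 and 0.062 on the FPKM scales, and without both libraries that stand apart Sohlh1 and Sall4 had 0.093 and 0.055. With 1 library left out, 0 to 2 genes of the list were lower, in place of 4, and the 0, without replicate 1 labelled Tmem232+/+, stood beside 6 genes lower at an unadjusted p under 0.05 in edgeR. Sohlh1 and Stra8, and Kit and Dmrt1 which did not pass, are also among the spermatogonia markers counted above.

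The profile of Crabp1 over the 8 libraries was set against 15062 other genes with a mean of at least 1 CPM, as the root mean square difference of log2 CPM after centring each gene on its mean. The nearest were 8030411F24Rik, Dbp, a transcription factor of the circadian clock, and Tsfm, a mitochondrial translation elongation factor, with differences of 0.0974, 0.106 and 0.116. Their log2 fold changes were -0.49, -0.45 and -0.42, and none passed the test (adjusted p between 0.0535 and 0.083 from edgeR). As Crabp1 itself moved mainly between the genotypes, this likeness describes the same contrast and nothing more.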

How the data were processed

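Whole testes of 4 Tmem232-/- and 4 Tmem232+/+ mice were used for paired-end RNA-seq (TruSeq RNA kit). The authors mapped cleaned reads to GRCm38.p6 with HISAT and Bowtie2 and used StringTie, featureCounts and DESeq2, with versions and strand setting not given in the sources used here. The authors deposited estimated counts without normalization, which were rounded here. The FPKM values deposited are scaled by library and transcript length. Columns with the results of the authors' own comparison were not used.

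Counts were analysed in R 4.3.3 with edgeR 4.0.16 (default filter, TMM, quasi-likelihood test without covariates, Benjamini-Hochberg adjustment over 15787 genes), and all 9 retinoic acid genes passed the filter. Standard errors are the log2 fold change divided by the root of F, and intervals use the t distribution with the total degrees of freedom of edgeR. Exact permutation tests had 70 arrangements. Genes and lists were chosen with earlier results of these data known. Named were the 9 genes, every called pathway and target gene, a few fixed ones, and the 3 genes most like a called one. Of the fixed genes, 1 is not reported here. The markers Uchl1, Gfra1 and Zbtb16 were named after their values were seen. Steps were tested on simulated data, where edgeR called 89.9% of genes changed 2-fold and 60% of those changed 1.5-fold. Of the calls there, 6.9% were false in edgeR, 14.1% in DESeq2 and 5.2% in limma-voom. Alternatives were DESeq2 1.42.0 and its size factors, limma 3.58.1 (voom, log2(FPKM + 1), log2(FPKM + 0.1)), library size alone, no filter, at least 10 counts in every library, the 10 most abundant genes removed, a block for replicate number, and leaving out single libraries. Leaving out 2 libraries together was chosen after seeing the data. Litters and batches are not given, so p-values measure the spread between these mice.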

Additional observations from a re-analysis of the deposited data

Results flagged for a closer look

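For Crabp1, replicate 4 labelled Tmem232-/- had 8.61 CPM, far from the other 3 libraries of its label at 5.99 to 6.40 CPM. Its distance from the next library made up 0.843 of the range of the 4, which is above the 95% limit of Dixon's test. Of 18 groups of 4 libraries, 1 exceeded this limit, where chance gives about 0.9. When it was left out, Crabp1 differed by -0.73 on the log2 scale, and by -0.60 with it.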

How the results depend on the processing

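Crabp1 stayed called in 18 of 19 alternatives, and lost its call only without both replicate 1 labelled Tmem232-/- and replicate 3 labelled Tmem232+/+, where 0 of the 9 genes were lower in edgeR and 2 at an unadjusted p under 0.05. The other 8 genes passed in none of 19. Aldh1a1 turned to -0.0215 without replicate 4 labelled Tmem232-/-, in a range of -0.0215 to 0.0985 with 1 library left out, and the other 8 kept their direction. The genes called lower over the whole table, 230, were 131 with DESeq2's size factors, 415 with library size alone, 71 without a filter, 466 and 448 with log2(FPKM + 1) and log2(FPKM + 0.1), 74 without both libraries, and 37 to 356 with 1 library left out. The pathway genes called higher, 4, were 1 with library size alone and with either FPKM scale, 2 without both libraries, and 1 to 4 with 1 library left out. Those called lower, 1, were 2 with log2(FPKM + 1) and 1 to 2 with 1 library left out. The 4 responsive genes called lower were 1 without a filter or without both libraries, and 0 to 2 with 1 library left out, and the cause was not tested. The replicate numbers do not pair the libraries, since the correlations of deviations between same-numbered libraries were -0.108, 0.122, -0.413 and -0.132. With the replicate number as a block, 28 genes were lower over the whole table, while Crabp1 stayed called. Of the pathway genes, 0 were then lower (4 at an unadjusted p under 0.05 in edgeR, Rbp4 having an adjusted p of 0.0505). Of the same genes 3 were higher, without Lrat (adjusted p of 0.162 from edgeR). Of the responsive genes 1 was lower, Sohlh1, Sall4 and Ccnd2 having adjusted p of 0.069, 0.0663 and 0.0907. Cyp26a1 had the fewest counts of the 9 genes, with at most 40 in a library.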
